A study of Homo sapiens with 12 samples.

Results

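Binding of the RNA-binding protein QKI at microRNA genes was measured by eCLIP, in which protein and RNA are crosslinked by ultraviolet light, the protein is immunoprecipitated, and the RNA bound to it is compared with an input library of matching fragment size. The members described here are the clusters of the endogenous QKI libraries whose annotated name was that of a microRNA gene. They were 763 of 616191 clusters, with 461 of 384347 in endogenous library 1 and 302 of 231844 in endogenous library 2. They carried 355 microRNA names. Merging clusters that overlapped on the same strand gave 597 loci, at which clusters of the tagged QKI libraries were then looked up.

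All libraries came from HEK293xT cells as labelled, a human embryonic kidney line that the labels' protocols call HEK293T, whereas the series' design text speaks of embryonic stem cells during cardiomyocyte differentiation. Endogenous QKI was precipitated with an anti-QKI antibody from cells without a transgene. Tagged wild type QKI-5 (myc-QKI-5) and a mutant with the substitutions K120A and R124A in the RNA-binding part of the protein were expressed from 10 µg of transfected plasmid for 72 hours and precipitated with an anti-MYC antibody. Each of the 3 groups had 2 libraries. All cells were crosslinked at 254 nm with 400 mJ/cm2. Because transfection and antibody both differ between the tagged and the endogenous libraries, those 2 differences cannot be told apart, and transfected cells also held their own QKI. Separate cultures are not stated for the 2 libraries of any group, so a p-value measures only the spread between these libraries.

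MicroRNAs are cut from long primary transcripts, first by DROSHA with DGCR8 in the nucleus into a hairpin and then by DICER1 in the cytoplasm into the mature strand, which guides an Argonaute protein to matching messages. Many hairpins lie in introns of other genes, so a protein found near a hairpin may be bound to the host transcript. QKI is a KH-domain protein of the STAR family that recognises ACUAA-like elements, regulates splicing and RNA stability, and has published ties to the processing of individual microRNAs, among them miR-7.

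The mature strands of the microRNAs on which the results turn are shown to identify them, with the seed (bases 2 to 8, which pairs with target messages) in capitals. The first set belongs to loci with QKI sites in the endogenous libraries.
hsa-miR-7-5p: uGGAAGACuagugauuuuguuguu
hsa-miR-3157-5p: uUCAGCCAggcuagugcagucu
hsa-miR-548l: aAAAGUAUuugcggguuuuguc
hsa-miR-548au-3p: uGGCAGUUacuuuugcaccag
hsa-miR-218-5p: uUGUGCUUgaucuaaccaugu
hsa-miR-4742-3p: uCUGUAUUcuccuuugccugcag

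The next set belongs to loci at which the tagged proteins had higher values than endogenous QKI, the wild type for the first 3 and the mutant for the last.
hsa-miR-15b-5p: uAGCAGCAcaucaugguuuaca
hsa-miR-16-5p: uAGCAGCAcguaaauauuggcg
hsa-miR-3165: aGGUGGAUgcaaugugaccuca
hsa-miR-503-5p: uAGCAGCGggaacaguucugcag

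The last set comes from the loci with the lowest endogenous values, which lie in transcripts that also carry small nucleolar RNAs or similar structured RNAs.
hsa-miR-664b-5p: uGGGCUAAgggagaugauugggua
hsa-miR-1248: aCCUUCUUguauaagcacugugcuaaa
hsa-miR-3651: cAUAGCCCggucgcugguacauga

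These sequences are from RefSeq on build GRCh38.p14, which matched 346 of the 355 names. miR-7-5p lies there at chr9:83969811-83969834 on the minus strand, miR-3157-5p at chr10:96064369-96064390 on the minus strand, and miR-218-5p at chr4:20528299-20528319 on the plus strand. Of these sequences only miR-15b-5p and miR-16-5p share a seed, AGCAGCA, and that of miR-503-5p is AGCAGCG. In the first set, from the endogenous sites, no seed is shared. All cluster coordinates below are the files' own hg19 positions, a different build, and were not converted.

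The annotation placed 109 clusters (80 loci) on a hairpin, 555 clusters (440 loci) beside a hairpin, and 99 clusters (77 loci) on other transcripts that carry a microRNA's name without a hairpin identifier. Clusters were 3 to 197 bases long, with a median of 53. Coding genes hosted 426 of the loci. The names in the third class mostly did not mark the microRNA's own transcript. On their RefSeq strand lay 399 of the 400 loci beside a hairpin that had one and 65 of the 66 loci on a hairpin. Of the 71 such loci in the third class, 15 (21.1%) lay on the microRNA's strand. MIR6080 had 29 loci in that class, and all 40 of its clusters lacked a hairpin identifier, on the minus strand of chromosome 17 where the microRNA is on the plus strand. MIR4523, second by number of clusters with 19, had 14 loci in that class, also on the strand opposite to the microRNA. MIR3916, with 12 clusters, lay on its own strand and had no cluster above a log2 fold of 1.15.

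QKI enrichment at microRNA genes was rare and about as frequent as elsewhere. The authors' log2 fold of immunoprecipitation over input is the measure throughout, and a cluster counts as enriched where that log2 fold and the −log10 p both reach 3 or more. In endogenous library 1, 18 of 461 clusters (3.90%, 95% Clopper-Pearson interval 2.33 to 6.10) were enriched, against a background of 4.22% of all clusters. In endogenous library 2 they were 15 of 302 (4.97%, interval 2.81 to 8.06), against 5.39%. The mean over the libraries was 4.44% ± 0.75 (SD, n = 2), and in each library the background lay inside the interval of the members. These intervals cover counting error only.

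Clusters on the hairpin itself had the lowest values. Their median log2 fold in endogenous library 1 was −1.21, against 0.26 over all clusters of that library, and 24.1% of them were above 0, against 59.6%. In endogenous library 2 their median was 1.15, equal to that of all clusters, but 63.6% were above 0, against 85.6%. Among these clusters, 1 of 54 (interval 0.05 to 9.89%) and 1 of 55 (interval 0.05 to 9.72%) were enriched. Beside hairpins the counts were 16 of 345 (4.64%) and 14 of 210 (6.67%). On other transcripts they were 1 of 62 (interval 0.04 to 8.66%) and 0 of 37 (interval 0 to 9.49%). Of all clusters, 4.22% and 5.39% were enriched, which lies inside the intervals on hairpins and on other transcripts. So few clusters do not separate these shares from the background. Low folds are coarse: in library 1, 47 member clusters shared the value −0.16, and in library 2, 50 shared the value 1.15. Read counts per cluster were not available, so the reason was not tested.

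**Figure D1:**
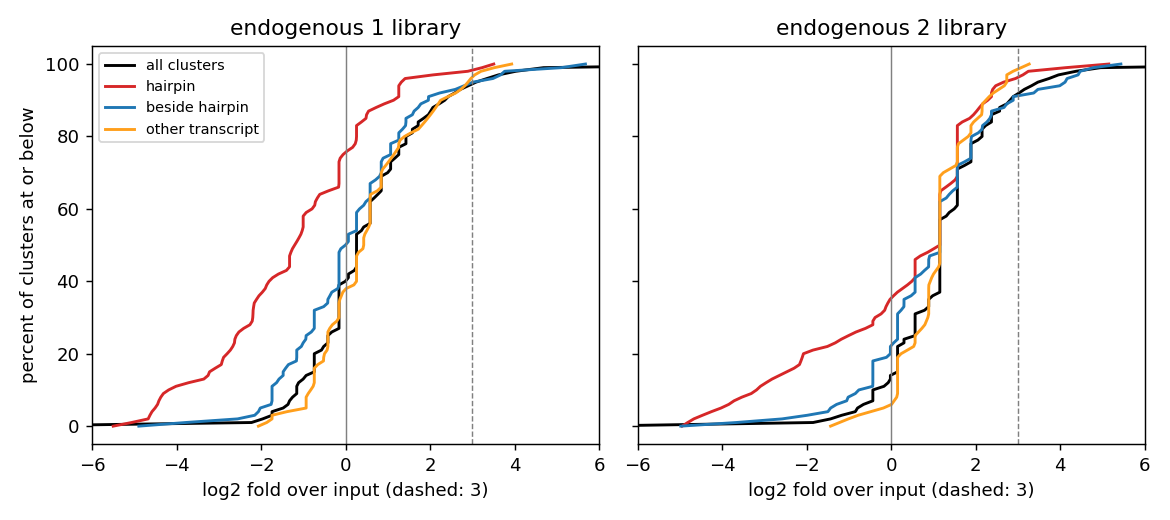
Cumulative percent of endogenous clusters (y axis) at or below each log2 fold over input (x axis), in endogenous library 1 (left) and 2 (right), for all clusters and for the 3 classes of microRNA clusters. The curve of clusters on hairpins lies to the left in library 1, where 24.1% are above 0, and its lower part does so in library 2, where 63.6% are.

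A cluster was present in both endogenous libraries at 138 loci, where Pearson's r between the libraries was 0.88 and Spearman's rho 0.79, given as a description because the loci share libraries and hosts. Both values were above 0 at 87 loci and below 0 at 30. Of the 24 such loci on a hairpin, 14 were below 0 in both libraries, 7 above 0 in both, and 3 differed in sign. Of the 96 beside a hairpin, 14 were below 0 in both and 68 above. Mean values of −2 or lower were found at 15 loci, of which 11 lay on the hairpin.

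**Figure D2:**
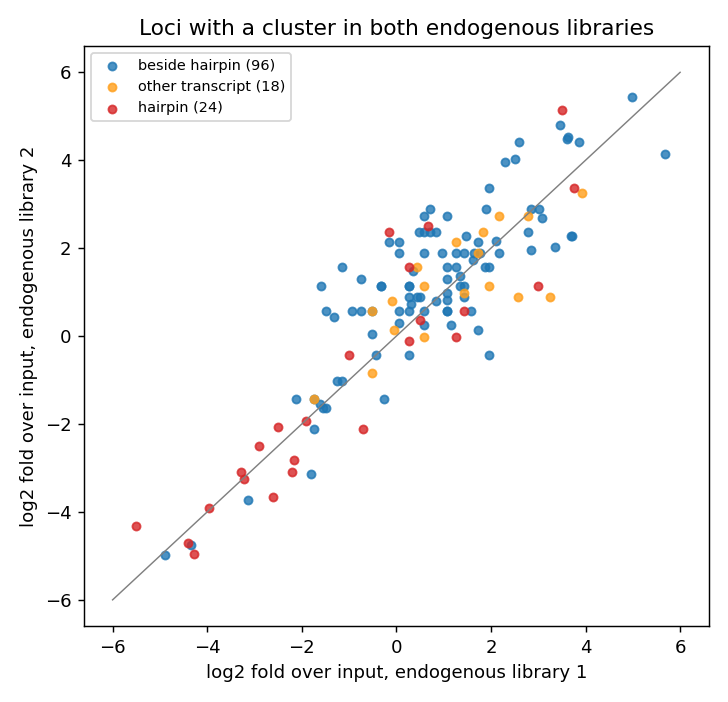
Log2 fold over input in endogenous library 1 (x axis) and library 2 (y axis) for the 138 loci with a cluster in both, coloured by class; the line marks equal values. Loci on a hairpin (24) make up most of the lower left corner, where 11 of the 15 loci with a mean of −2 or lower lie.

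Enriched in at least 1 endogenous library were 16 loci (2.68%), at 11 microRNA genes, against a background of 3.19% of all endogenous loci. Enriched in both were 7 (1.17%), against 1.62%. The authors' endogenous reproducible peaks, a list made from the pair of libraries, touched 8 of the 597 loci (1.34%), against a background of 2.07% of the 493706 loci made in the same way from all endogenous clusters. Those 8 loci belonged to MIR3157, MIR548L (2 loci), MIR548AU, MIR218-1, MIR7-1, MIR151A and MIR4742. They were chosen by high endogenous values, and that choice favours endogenous values above the tagged ones. Comparisons of endogenous with wild type values at them are therefore a description and were not tested.

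MIR7-1 was the only gene with an enriched locus on a hairpin in both endogenous libraries. miR-7 is a conserved microRNA best known from neurons and neuroendocrine cells, and its hairpin lies inside HNRNPK, which encodes an abundant KH-domain RNA-binding protein. The cluster, chr9:86584725-86584770 on the minus strand, was 46 bases long and lay wholly on the hairpin. The annotation also placed it in the 3′ UTR of HNRNPK. Its log2 fold was 3.51 and 5.15 in the endogenous libraries (4.33 ± 1.16, SD, n = 2), with −log10 p of 12.2 and 9.92. Tagged wild type gave 4.11 and 1.31 there, and neither mutant library listed a cluster. Wild type library 1 was enriched and lay within the endogenous range, and library 2 lay below it.

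The hairpin of MIR7-1 was the low point between stronger sites of HNRNPK. Within 300 bases upstream of its centre, 6 clusters of endogenous library 1 had log2 folds of 4.12 to 7.45 and 6 of library 2 had 5.83 to 8.54. Within 300 bases downstream, 5 clusters of library 1 had 7.04 to 8.07 and 5 of library 2 had 6.4 to 7.81. The nearest upstream cluster of library 1 began 22 bases from the hairpin cluster, was named HNRNPK and reached the cap of 400 for the −log10 p. Wild type values were 6.52 to 7.51 upstream and 7.34 to 7.75 downstream in library 1, and 5.77 to 6.30 and 7.15 to 7.20 in library 2. In the mutant, library 1 had 1 upstream cluster at 4.46 and none downstream, and library 2 had no cluster within that distance. Ranked by −log10 p, the hairpin cluster was 14th of 17 HNRNPK clusters in endogenous library 1 and 12th of 14 in library 2.

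MIR3157 had the highest single value of any microRNA locus. Its site, chr10:97824308-97824471 on the minus strand, lay beside the hairpin in a distal intron of the noncoding transcript ENTPD1-AS1. Log2 folds were 5.68 and 4.15 in the endogenous libraries (4.91 ± 1.08, SD, n = 2) and 4.11 and 3.56 in wild type (3.83 ± 0.39, SD, n = 2), and no mutant library listed a cluster. The groups did not overlap, but only by a small margin, with wild type library 1 just under endogenous library 2. ENTPD1-AS1 held 23 enriched clusters among 184 in endogenous library 1, of which that of MIR3157 was 8th by −log10 p.

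MIR548L had 13 clusters, 11 of them enriched, all in a distal intron of MRE11A, whose product takes part in repair of DNA double-strand breaks. The miR-548 family is a large primate family derived from transposable elements. The main site, chr11:94199349-94199615 on the minus strand, had log2 folds of 4.98 and 5.44 in the endogenous libraries, with −log10 p of 30.9 and 24.9. Wild type gave 3.87 and 3.96, below both endogenous values but enriched in both libraries. Mutant library 1 listed nothing and mutant library 2 gave 0.84. In each endogenous library this site held the cluster with the highest −log10 p in MRE11A, out of 57 and 49. The upstream site, chr11:94200225-94200338, had 3.61 and 4.47 in the endogenous libraries and 2.27 and 2.10 in wild type, with no mutant cluster.

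MIR548AU, of the same family, lay in a distal intron of PHF2, a histone demethylase gene. Its site at chr9:96357272-96357449 on the plus strand had 3.87 and 4.42 in the endogenous libraries, 2.73 and 3.02 in wild type, and 0.19 in mutant library 1 alone. By −log10 p it ranked second in PHF2 in both endogenous libraries. The mature strands of MIR548L and MIR548AU shown above do not share a seed.

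MIR218-1 lies in SLIT2, the gene of an axon guidance ligand, and the cluster at chr4:20530481-20530559 on the plus strand was annotated at a 3′ splice site of SLIT2. It had log2 folds of 3.63 and 4.52 in the endogenous libraries and 2.66 and 2.28 in wild type, and none in the mutant. SLIT2 was bound along much of its length, with 52 enriched clusters of 396 in endogenous library 1 and 51 of 355 in library 2, and this cluster ranked only 55th and 54th by −log10 p. MIR4742 lay at a 5′ splice site of WDR26, a ubiquitin ligase subunit gene. Its cluster at chr1:224586059-224586171 on the minus strand had 2.60 and 4.42 in the endogenous libraries and 2.78 and 3.44 in wild type, so the groups overlapped, and none in the mutant.

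MIR151A had the lowest wild type values of the reproducible sites, though in wild type library 2 MIR7-1 was close, at 1.31. MIR151A is encoded in an intron of PTK2, the gene of focal adhesion kinase. At chr8:141742960-141743061 on the minus strand the endogenous libraries gave 3.47 and 4.81, the wild type libraries 0.41 and 1.18, and the mutant libraries nothing. PTK2 held 22 and 16 enriched clusters in the endogenous libraries, and the cluster of MIR151A ranked 13th and 8th by −log10 p. The difference between endogenous and tagged protein was not tested at this site, which was chosen by its endogenous values.

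**Figure D3:**
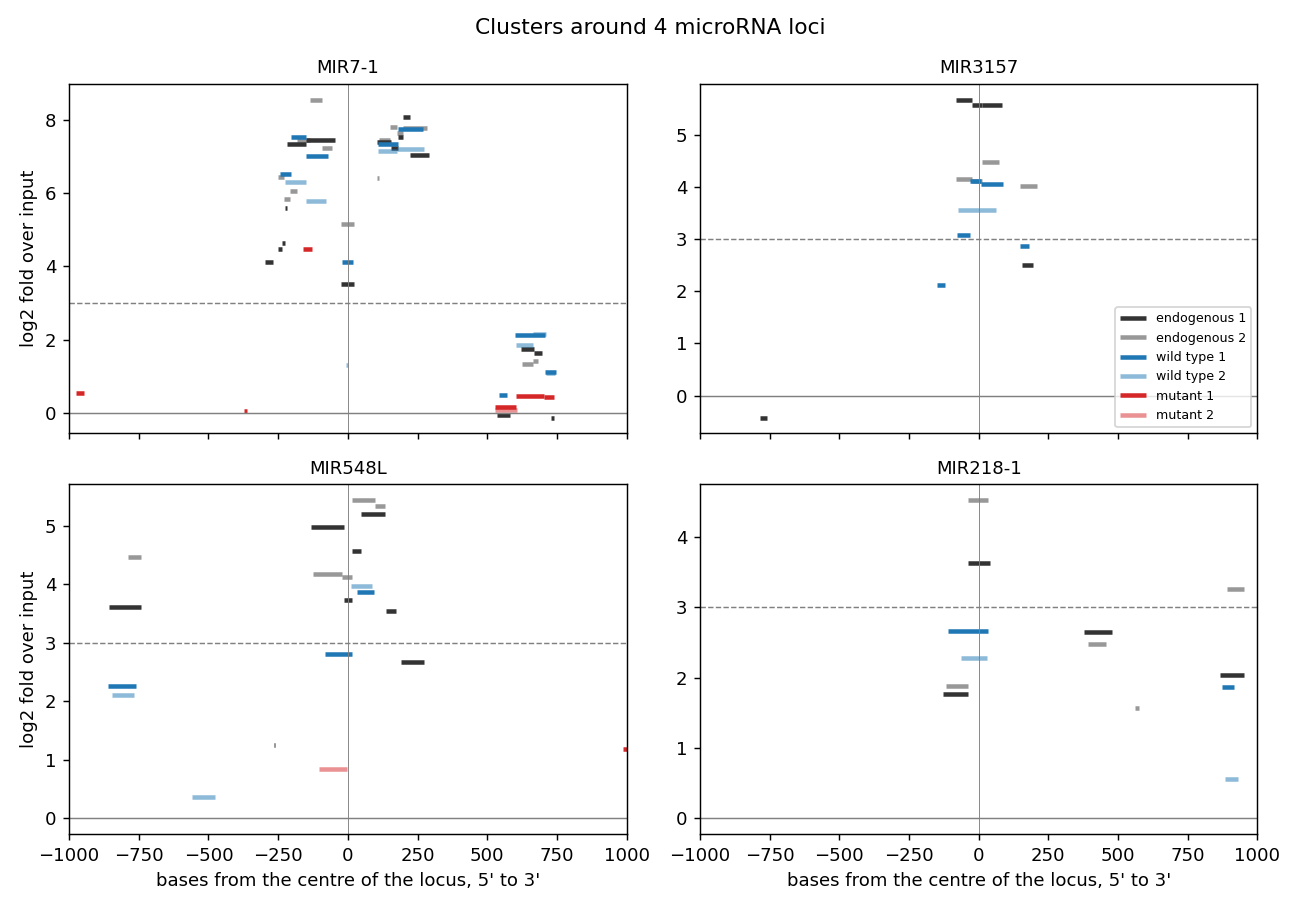
Clusters within 1000 bases of the centre of 4 microRNA loci, drawn 5′ to 3′ along the transcript (x axis, bases) at their log2 fold over input (y axis; dashed line at 3), for each of 6 libraries. At MIR7-1 the hairpin cluster (3.51 and 5.15 in the endogenous libraries) sits between higher HNRNPK clusters, while at MIR3157, MIR548L and MIR218-1 the locus itself holds the highest clusters of the window.

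The other 8 loci were enriched in 1 endogenous library each, and 3 of them were further sites of MIR3157, MIR548L and MIR548AU. MIR301A, of the same seed family as miR-130, lay in SKA2 and gave 3.07 and 2.69. MIR3609, in TRRAP, gave 3.75 and 3.37, with a −log10 p of 2.45 in library 2. The merged locus touched the hairpin, but the cluster of 3.75 was not placed on it. No hairpin cluster of library 1 was above 3.51. The locus of MIR3609, with that of MIR10A, was 1 of 2 listed in all 6 libraries, with 3.0 and 0.20 in wild type and 1.39 and 1.01 in the mutant. MIR3978 had a pair of adjoining loci in TMEM164, at 3.68 and 3.72 in library 1 and 2.27 for both in library 2. The enriched site under the name MIR6080 (3.93 and 3.27) lay on the strand opposite to the microRNA, as described above.

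The lowest loci were far below input in both endogenous libraries. MIR664B in DKC1, the gene of the pseudouridine synthase dyskerin, had −5.50 and −4.32. MIR1304 in TAF1D gave −4.90 and −4.98, MIR3651 in IARS −4.29 and −4.95, MIR6516 in SEC14L1 −4.40 and −4.70, and MIR1248 in EIF4A2 −4.35 and −4.75. For each of them the annotation also named a noncoding exon at the same place, and no tagged library listed a cluster. The tagged lists hold only clusters above a log2 fold of 0, so a low tagged value at these loci would not be seen. Among all 15 loci with a mean of −2 or lower, the wild type libraries listed 1, MIR1304's other locus at 1.75 and 1.89, and the mutant libraries listed 6, with no tagged value above 1.89. In the list of 18 microRNAs that lie inside other structured RNAs, 8 had clusters, with median log2 folds of −1.04 and −2.51. Of their 21 clusters 0 were enriched, against 4.22% and 5.39% of all clusters in endogenous libraries 1 and 2. With so few clusters, a count of 0 is near that background.

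Loci at which tagged wild type QKI-5 was enriched were counted next. Of the 597 loci, 5 (0.838%, interval 0.27 to 1.94) were enriched in wild type library 1 and 7 (1.17%, interval 0.47 to 2.40) in library 2, against backgrounds of 0.886% and 0.928% of all endogenous loci. In mutant library 1 there were 0, for which the Clopper-Pearson interval reaches 0.616% and a limit of 3 counts in 597 loci gives 0.503%, against a background of 0.00972%, and in mutant library 2 there were 2 (0.335%), against 0.0488%. Wild type averaged 1.01% ± 0.24 (SD, n = 2) and the mutant 0.168% ± 0.24 (SD, n = 2). The groups did not overlap, and the exact two-sided permutation test gave p = 0.33, the smallest that 2 libraries against 2 allow. The members' wild type shares were near the background.

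Whether a tagged cluster was listed at all gave another picture. At microRNA loci the listed share was 17.8% and 16.2% in wild type and 14.9% and 20.6% in the mutant, so the groups overlapped (difference −0.75 percentage points, exact permutation p = 1). The direction was not stable, since the difference was 11.6 over loci with a cluster in both endogenous libraries, 2.09 without mutant replicate 2 and −3.60 without mutant replicate 1. Over all endogenous loci it was 18.2% and 19.2% in wild type and 9.43% and 11% in the mutant. The mutant shares at microRNA loci lay above those of all loci in both libraries. On hairpins, 12.5% and 5% of loci were listed in wild type and 15% and 21.2% in the mutant. The median log2 fold of the mutant clusters at microRNA loci was 0.61 and 1.11, and the depth of the libraries is unknown, so the part of depth in these shares was not tested. No tagged library listed a cluster at 332 of the 597 loci.

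**Figure D4:**
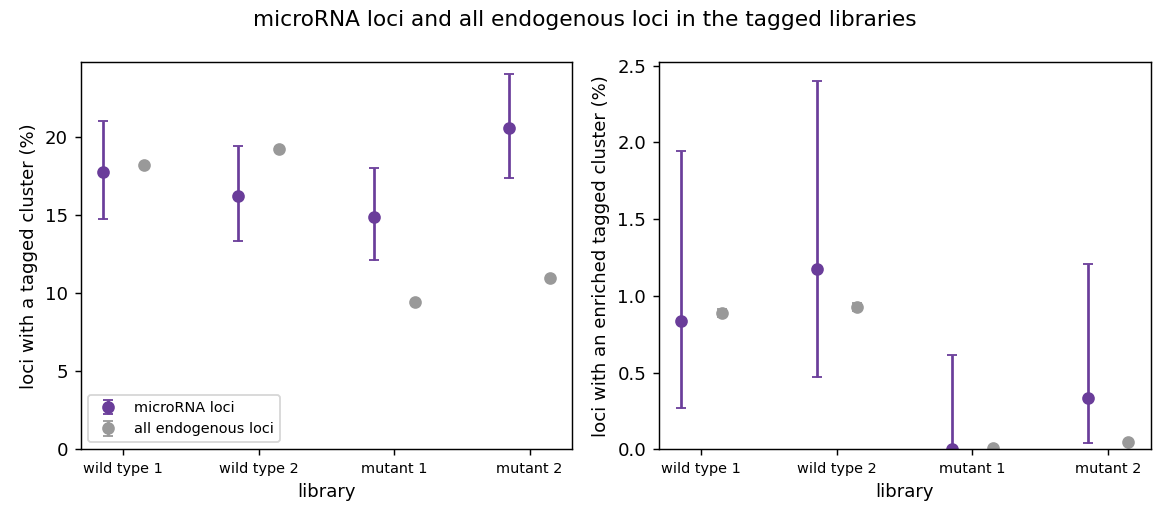
Percent of loci with a tagged cluster (left) and with an enriched one (right) in each wild type and mutant library, for the 597 microRNA loci and for all 493706 endogenous loci; bars are 95% Clopper-Pearson intervals, which cover counting error only. The microRNA loci lie near all loci in wild type, and above them in the mutant for listed clusters (14.9% and 20.6% against 9.43% and 11%).

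At the loci that endogenous QKI bound, clusters were listed more often in wild type than in the mutant, as at all endogenous loci chosen in the same way. At the 16 loci enriched in an endogenous library, each wild type library listed 13, with median log2 folds of 2.73 and 2.10, while the mutant libraries listed 3 and 2. Enriched were 3 and 4 in wild type and 0 and 0 in the mutant. For all 15737 endogenous loci chosen in the same way, wild type listed 79.2% and 76.3% and enriched 19.4% and 18.0%, and the mutant listed 10.8% and 11.2%. Of the 13 endogenous reproducible peaks at microRNA loci, 7 (53.8%, interval 25.1 to 80.8) shared a base with a peak reproducible in wild type, as did 24.3% of all 12409, and 0 shared a base with a mutant one. Those 7 lay at only 3 genes, MIR3157 and MIR548L with 3 each and MIR4742 with 1, so they are not independent. Across the 29 loci with values in both endogenous and both wild type libraries, Pearson's r of the mean log2 folds was 0.39 and Spearman's rho 0.43, given as a description.

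Among the loci enriched in a wild type library, 3 were not enriched in either endogenous library. They were chosen by these values, so the differences that follow are a description and were not tested. At MIR15B and MIR16-2, a pair of hairpins in SMC4 whose mature strands share the seed above and repress cell cycle genes, the cluster at chr3:160122806-160122860 on the plus strand had 1.06 and 1.30 in the endogenous libraries and 3.89 and 3.02 in wild type. At MIR3165 in a distal intron of NUMA1, chr11:71782795-71782884 on the minus strand, they were 1.43 and 0.89 against 3.41 and 3.35. No mutant cluster was listed at either site. At MIR6723, chr1:567813-567874 on the plus strand, the values were 2.58 and 0.89 against 3.41 and 4.19. That stretch of chromosome 1 holds a nuclear copy of mitochondrial genes, so its reads may be shared with near-identical copies and its values are uncertain. Other clusters within 1000 bases downstream reached 6.57 and 7.99 in the endogenous and 7.68 and 7.48 in the wild type libraries. Without reaching the fold threshold, the other locus of MIR1304, described above, had −1.80 and −3.13 in the endogenous libraries against 1.75 and 1.89 in wild type, a wider gap than at any of the 3 sites. It was picked out after its values were seen.

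Mutant QKI-5 was enriched at 2 loci, each in mutant library 2 alone. At MIR503, chrX:133680423-133680556 on the minus strand in MIR503HG, the mutant libraries had 1.47 and 3.21, the wild type libraries 0.41 and 0.61, and endogenous library 1 had 0.21 with nothing in library 2. At MIR940, chr16:2321335-2321368 on the plus strand, mutant library 2 had 3.63 against 0.61 in mutant library 1, 0.61 in wild type library 2 and 0.58 in endogenous library 1. No locus was enriched in a mutant library and in an endogenous one.

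**Figure D5:**
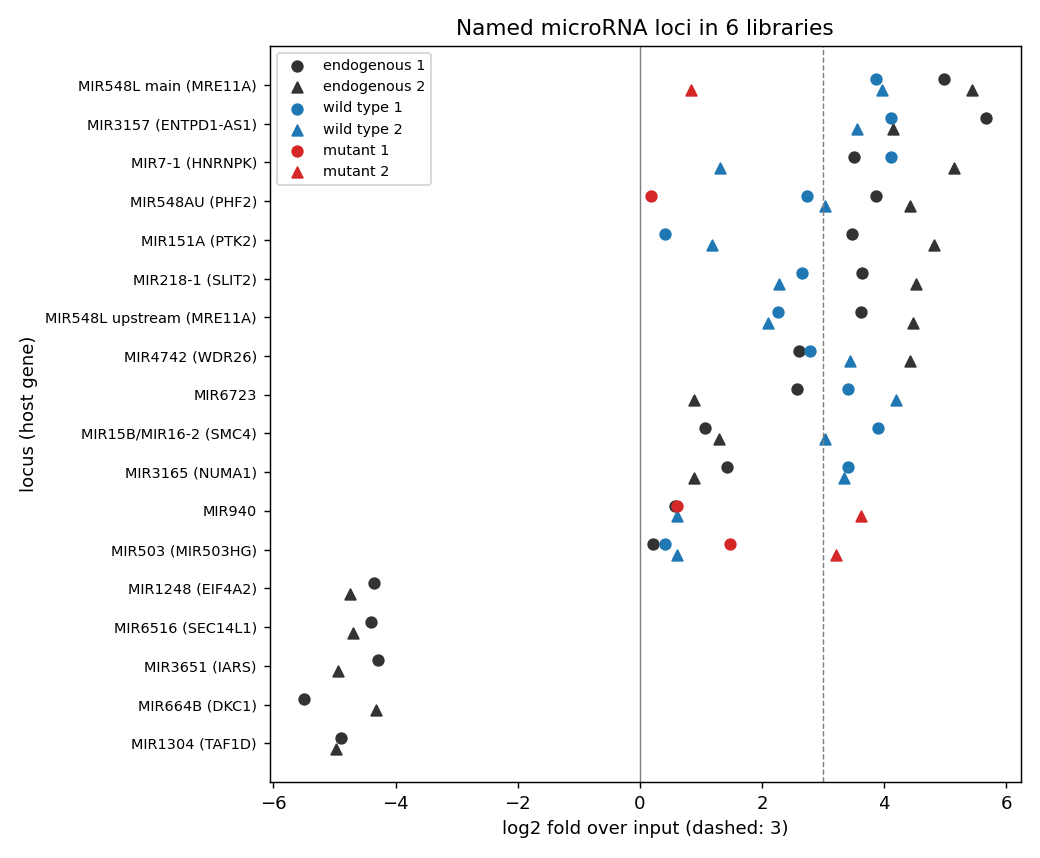
Log2 fold over input (x axis; dashed line at 3) of the named microRNA loci (y axis, host gene in parentheses) in the 2 endogenous, 2 wild type and 2 mutant libraries; a missing point means that no cluster was listed. Endogenous values run from −5.50 at MIR664B to 5.68 at MIR3157, the wild type points lie to the right of the endogenous ones at MIR15B/MIR16-2, MIR3165 and MIR6723, and the mutant is above 3 at MIR503 and MIR940 in library 2 alone.

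The regions with a cluster in all 4 tagged libraries allowed a test of wild type against mutant. The limma fit over 5481 regions called 36 regions (0.657%) higher in wild type and 1 (0.0182%) lower, with an adjusted p of at most 0.05. Of the 6 regions at microRNA loci, limma called 0, with 0 higher and 1 lower at an unadjusted p under 0.05, where 280 (5.11%) of all regions were higher and 398 (7.26%) lower. That was MIR503, with a wild type minus mutant difference of −1.83 (SE 0.64, limma adjusted p = 0.319). MIR612 had −1.08 (limma adjusted p = 0.451), MIR10A −0.77, MIR103A2 −0.14, MIR933 0.03 and MIR3609 0.40. The median difference was −0.46 for these 6 and −0.26 for all regions. None of the 8 loci on endogenous reproducible peaks had a cluster in both mutant libraries, so none of them could enter this fit.

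Of 10 microRNA genes with published ties to QKI, 4 had a cluster, and of those 4 only MIR7-1 was enriched. The list mixes microRNAs tied to QKI as binding partners with microRNAs tied to it as its regulators. These counts are therefore not a rate of binding at known partners. As a rough background for having a cluster, 275 of the 1560 hairpins of the RefSeq table belonged to genes with one. This covers only genes with a hairpin entry, which 275 of the 351 genes with a cluster had and MIR7-1 had not. The 2 shares are thus over unlike sets. Over all microRNA genes with a cluster, 11 of 351 (3.13%) had an enriched endogenous locus. MIR124-1 and MIR124-2, neuronal microRNAs, had hairpin clusters in endogenous library 2 alone, at 1.15 and 1.56. MIR20A, a member of the miR-17-92 cluster that promotes cell growth, had −1.04 and −0.95 at its 2 loci, in endogenous library 1 alone. A list of 15 genes held MIR98, of the let-7 family, and genes of the miR-17-92 and related clusters. Of these 15 genes, 9 had a cluster. Of their 9 clusters 0 were enriched, against 4.22% and 5.39% of all clusters in endogenous libraries 1 and 2. The strongest, beside MIR17 in MIR17HG at chr13:92002256-92002405 on the plus strand, had log2 folds of 2.11 and 2.17 with −log10 p of 11 and 5.64, so it was above input in both libraries but under the fold threshold. It had 0.27 and 0.67 in wild type and no cluster in the mutant.

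Tissue-restricted microRNAs were counted in these cells, which the labels call a kidney-derived line. Of 8 microRNA genes of pluripotent stem cells, 0 had a cluster, as did 0 of 7 of heart and muscle, 0 of 3 of blood and 0 of 1 of liver. Of 6 neuronal ones, 3 had a cluster, MIR124-1, MIR124-2 and MIR9-3, the last at −0.16 and 2.37. Of the 1560 hairpins of the RefSeq table, which lacks some of the genes with a cluster, 275 belonged to genes with one. A count of 0 in lists this short therefore decides nothing about the label. Low transcript abundance and lack of binding cannot be told apart in these counts.

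The QKI core element ACUAA was searched on the transcribed strand only, in RefSeq hairpins on GRCh38.p14. Of 22 genes with a locus enriched in any library, on a reproducible peak or among the lowest named, 15 had an entry. Genes named only for a list or for their number of clusters were not among these 22. MIR20A, on the list of genes tied to QKI, was thus left out, although its hairpin holds the element. MIR7-1, MIR548L, MIR548AU, MIR151A, MIR1304, MIR3609 and MIR6723 were not searched. The element was in 0 of the 15 searched, in 9 of the 275 hairpins of all genes with a cluster (3.27%), and in 51 of the 1560 hairpins of the table (3.27%). These 3 windows show the element in capitals, in hairpins of genes with a cluster of any height.
MIR20A: guagcACUAAagugcuuaua
MIR32: auugcacauuACUAAguugcauguu
MIR34C: aguaccaaucACUAAccacacggcc

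A match is only a stretch of letters, and no match says nothing of the sequence beside a hairpin, where most of the clusters lay.

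Transcripts of the microRNA machinery carried QKI sites of their own. Of 21 genes, 19 had a cluster in both endogenous libraries, a count for which no background was computed. Of these 19, 12 had an enriched cluster in both, against 25.7% of the 15578 names with a cluster in both. Gene length and expression, which set how many clusters a name can have, were not matched. The site given for each gene below is its strongest by −log10 p in the endogenous libraries. That choice favours endogenous over wild type values, and differences between them were not tested. TNRC6A, which encodes the GW182 scaffold that links Argonaute to deadenylation, had 17 and 13 enriched clusters and 11 reproducible peaks. Its strongest site by −log10 p, chr16:24831680-24831781 on the plus strand, had 4.47 and 6.04 in the endogenous libraries and 3.90 and 3.76 in wild type, with no mutant cluster. DROSHA, the nuclear microRNA-cutting enzyme, had 3.79 and 5.37 at chr5:31438761-31438897 on the minus strand, with 4.0 and 3.35 in wild type and none in the mutant. AGO3, an Argonaute, had 4.28 and 3.21 at chr1:36497253-36497352 on the plus strand, with 3.97 and 4.46 in wild type, so the groups overlapped.

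Only these 3 of the 21 genes, TNRC6A, DROSHA and AGO3, had an enriched cluster in both wild type libraries. The share over all names was not computed for the tagged libraries. The wild type count, and the mutant counts below, therefore cannot be called high or low. DICER1, which makes the final cut, had 4.18 and 4.42 at its strongest site and 2.62 and 2.66 in wild type. XPO5, which exports the hairpin from the nucleus, had 4.30 and 5.27, with 1.90 and 2.00 in wild type. LIN28B, which blocks let-7 maturation, had 4.26 and 3.53, with 3.66 and 2.02. HNRNPA1 had 5.02 and 4.60, with 1.41 and 1.91 in wild type. DGCR8, the partner of DROSHA, reached 2.51 and 2.65 and was not enriched. DDX5, DDX17, KHSRP, SRSF3 and TARBP2 had 0 enriched clusters in either endogenous library, and LIN28A had no cluster in either. In the mutant 0 genes were enriched in both libraries and 1, ADAR, in 1 library.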

How the data were processed

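The 6 immunoprecipitation libraries of 12 were used; the 6 inputs enter through the authors' values. Per the submitters' processing notes, UMI-tools, cutadapt, STAR and SAMtools were used on hg19; their versions, like peak caller and annotation, were not given in the sources used here. The log2 fold over input of every cluster is the authors' deposited value. So is the −log10 p of the enrichment, which the deposited files cap at 400. Read depth is unknown.

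Members were endogenous clusters with a name starting hsa-mir or MIR and a digit, host genes (HG) left out; same-strand clusters sharing at least 1 base were merged into loci, and each library's value is its overlapping cluster with the highest −log10 p. Members, lists and thresholds were chosen with earlier results of these data known. Loci were named where enriched in both endogenous libraries, on a reproducible peak, enriched in a tagged library, among the 5 lowest or the 5 genes with most clusters, or in a list. Wild type and mutant were compared by exact permutation tests and by limma 3.58.1 (R 4.3.3) with Benjamini-Hochberg adjustment, checked on simulated data. Python 3.11.15, pandas 2.3.3 and SciPy 1.17.1 were used. Alternatives were other thresholds, overlaps, merging, replicate omission, a replicate block and other limma settings.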

Additional observations from a re-analysis of the deposited data

How the results depend on the processing

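The direction of the wild type minus mutant difference in enriched share (0.838 percentage points) held under every alternative run, between 0.168 with −log10 p raised to 5 and 4.35 over loci with a cluster in both endogenous libraries, and between 0.670 and 1.01 when each library was left out in turn. With a replicate block it was unchanged at 0.838 (exact test of paired differences, p = 0.5). The labels do not say that replicate numbers mark a shared culture, and deviations of same-numbered libraries correlated at −0.04 over 5481 regions. The listed share had no stable direction: from −0.75 it turned to 11.6 over loci with a cluster in both endogenous libraries, and ran from −3.60 to 2.09 when single libraries were left out (2.09 without mutant replicate 2). The mean endogenous enriched share of 4.44% became 5.20% with the fold threshold lowered to 2, 2.97% with it raised to 4, and 3.45% with −log10 p raised to 5. Over all clusters the mean was 4.81% at the main thresholds. It was not computed at the other thresholds, so those do not test the comparison with the background. Among clusters above 0 the member share was 7.30%. All clusters above 0 held 16231 enriched of 229118 in library 1 and 12504 of 198511 in library 2. With hairpin identifiers only, an alternative chosen after seeing the data, the member share was 4.96%. Single endogenous libraries gave 3.90% to 4.97%. The overlap of reproducible peaks fell from 7 of 13 to 6 with at least 50% overlap, and was 5 of 11 for endogenous peaks of at least 4, an alternative added after seeing the data. With that limit on both lists it was 0 of 11, which follows from the highest wild type peak at a microRNA locus being 3.99. The ACUAA share rose from 0 to 3.27% over all member hairpins. limma called 0 microRNA regions under every setting, while the count over all regions, 37, ranged from 0 (missing clusters set to 0, or without mutant replicate 1 or 2) to 84 (spread shared by 6 libraries), with 42 under the replicate block. Depth is unknown, so weak and absent sites cannot be separated. The causes of these shifts were not tested.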
